A study of Mus musculus with 8 samples.

Results

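Induction of c-Fos was compared with an empty vector across all genes of ASZ001, a line of cultured mouse cells from a basal cell carcinoma. The 4 libraries of the comparison were chosen by their labels from the 8 libraries of the series: c-Fos with DMSO, replicates 1 and 2, and empty vector, replicates 1 and 2. Of 24883 genes in the deposited table, 12879 had enough counts to be tested, and all of these enter the counts below. The genes described singly lie outside the marker lists of the AP-1 family, squamous differentiation, invasion with matrix remodelling, and the Hedgehog pathway, apart from Fos itself and some cell markers and gene neighbours. Of the genes in those lists, 118 were tested and are counted only where all genes are counted.

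Both groups carried a doxycycline-inducible vector, which was either empty or held c-FOS, and both received doxycycline for 24 h. The c-Fos cells were also given DMSO, the solvent control of the series, for 6 h. The label of the control libraries names doxycycline and no solvent, so the effects of c-Fos and of DMSO cannot be told apart in this comparison. The other 4 libraries hold the same c-Fos cells treated for 6 h with 5 µM afatinib, an inhibitor of the EGFR family of receptor kinases, or with 10 µM UO126, an inhibitor of the MEK kinases, 2 libraries each. The labels do not say whether the vectors sat in clones or in pools of cells, nor whether replicate libraries stem from separate cultures. The p-values thus rest on the spread among the libraries at hand, and that spread may be technical.

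c-Fos is a subunit of AP-1, a transcription factor that forms when a Fos protein pairs with a Jun protein and binds short DNA sites near and far from genes. In skin, AP-1 is known for its part in keratinocyte differentiation and in wound and tumour responses. Basal cell carcinoma arises from keratinocytes with an active Hedgehog pathway, which signals through the primary cilium.

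Fos, the induced gene, stood at 40.6 and 50.5 CPM (counts scaled to library size) in the empty-vector libraries and at 1163 and 1120.5 CPM with c-Fos and DMSO. The 2 groups did not overlap, with a log2 fold change of 4.65 ± 0.10 (standard error, n = 2 libraries per group; edgeR quasi-likelihood test, adjusted p = 2.6e-12). Here and below, the standard errors rest on the spread within all groups of the 8 libraries, also those with an inhibitor. The counts do not separate vector-derived from endogenous Fos reads. The species of the inserted c-FOS is not given, so how fully vector reads were counted is not known. Libraries held between 17901974 and 23126048 counts, and the ribosomal RNA precursor Rn45s took 2.19% to 4.08% of the counts in the 4 compared libraries. All 15 markers of keratinocytes and basal cell carcinoma were tested, with a summed level of 24040 and 24030 CPM in the empty-vector libraries and 26840 and 27270 CPM with c-Fos. Of these markers 7 were called higher and 4 lower. Krt14 went from 5499 and 5456 to 7499 and 7827 CPM and Itgb4 from 1268 and 1262 to 2143 and 1967 CPM. Krt17 went from 2603 and 2732 to 1749 and 1851 CPM and Trp63 from 291 and 281 to 169 and 171 CPM. Summed markers of fibroblasts were at 6.02 and 6.26 CPM against 9.52 and 10.2 CPM, with Lum and Thy1 at 0 in all libraries, and those of leukocytes at 6.19 and 5.73 CPM against 6.91 and 6.25 CPM, with Tyrobp at 0. The endothelial sum was 110.2 and 101.4 CPM against 167.8 and 153.4 CPM, with Cldn5, Kdr and Tie1 at 0, and the melanocyte sum was 60.9 and 52.2 CPM against 47.6 and 44.2 CPM, with Kit and Tyr at 0. Within a list, members moved in opposite directions: Flt1 rose (38.4 and 32.5 against 108 and 97.5 CPM) while Pecam1 fell (70.9 and 68.2 against 58.9 and 55.3 CPM). Among the fibroblast markers Col1a2 rose (2.91 on the log2 scale) and Dcn fell (-1.82). Col6a3 went from 0 and 0.049 to 0.54 and 0.57 CPM, too few reads for a fold change. Csf1r rose among the leukocyte markers (3.18), from only 0.13 and 0.19 CPM to 1.96 and 1.02 CPM. Mitf fell among the melanocyte markers (-0.43). Their part in the results below was not tested. In cultures, fewer cells of a kind and less RNA per cell cannot be told apart.

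The response was broad and mostly small. Of the genes tested, 5433 (42.2%) passed the test, 2771 (21.5%) higher and 2662 (20.7%) lower with c-Fos. The larger changes were fewer: 494 genes (3.84%) were higher and 512 genes (3.98%) lower by at least 2-fold. Among the called genes, 1668 of the rises and 1322 of the falls were under 0.5 on the log2 scale, while 83 rises and 23 falls reached 3 or more. Thus the extreme end held more rises than falls, although the totals were alike. Leaving out empty vector replicate 1 or c-Fos with DMSO replicate 2 lowered the number of falls to 1661 and 1691.

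The called rises took 26.9% of the tested counts in the empty-vector libraries and 35.8% with c-Fos, and the called falls took 21.8% and 15.2%. Genes at least 2-fold higher moved from 1.16% to 3.20% of the counts, and those at least 2-fold lower from 2.13% to 0.839%. Most of the sequenced RNA thus came from genes with small changes or none. Of the 4 libraries of a gene, those of the 2 groups did not overlap for 9632 genes (74.8%), and all 5433 called genes were among them. For 5408 of the called genes the difference between groups exceeded the larger difference within a group, as it did for 8528 of all 12879 tested genes. The test itself favours genes whose difference is large against their spread. The median absolute log2 difference between libraries was 0.086 for the empty vector and 0.093 for c-Fos with DMSO, against 0.24 between the group means.

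Of the 494 genes at least 2-fold higher, 38 lay in the marker lists left out and 66 in the 25 gene lists described below, which leaves 390 in neither, 32 of them predicted or unnamed transcripts. Of the 512 genes at least 2-fold lower, 4 lay in the lists left out, 79 in the lists described and 429 in neither, 43 of these predicted or unnamed.

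**Figure D1:**
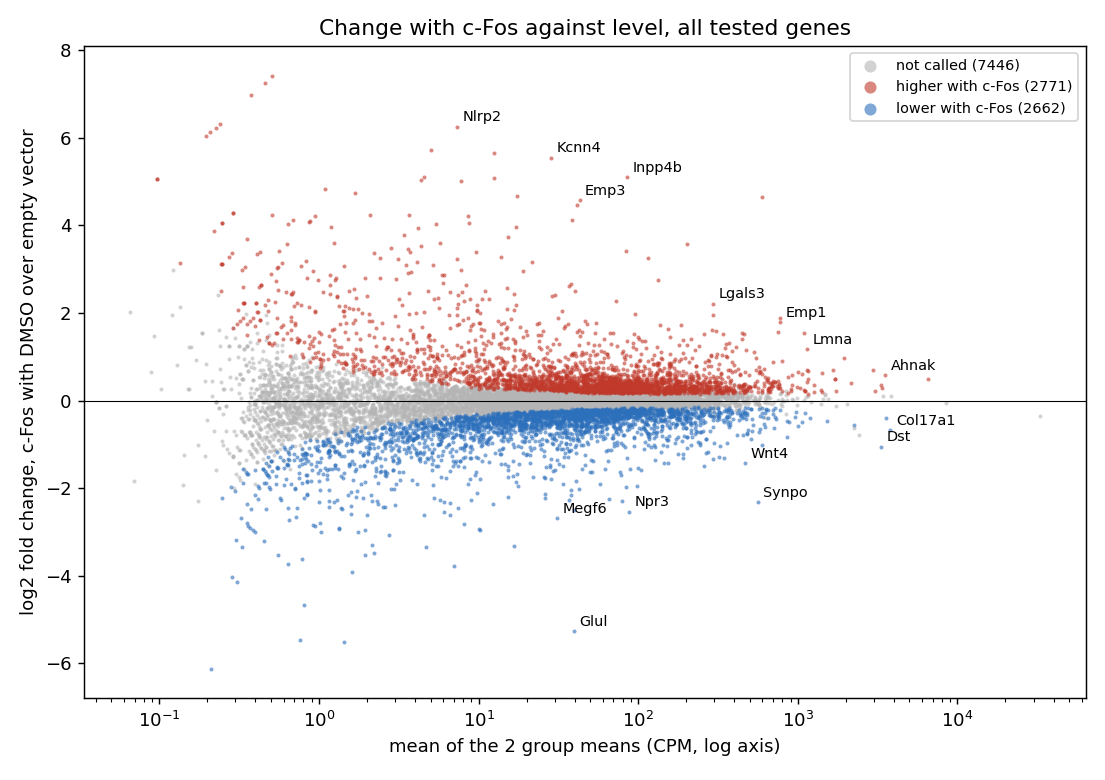
Each point is 1 of the 12879 tested genes, with the mean of the 2 group means in CPM on a log x axis and the log2 fold change of c-Fos with DMSO over empty vector on the y axis; red marks 2771 genes called higher and blue 2662 called lower. The largest changes sit at low and middle levels, and some genes of the text, such as Inpp4b and Glul, are labelled.

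Promoters were searched for the AP-1 letters TGANTCA and for the related CRE letters TGACGTCA, on both strands, in windows from 250 bases before to 50 bases after the annotated start. The sequences are RefSeq's for GRCm38.p6, matched by symbol for 10131 of the 12879 tested genes with 12861 windows; the deposited counts rest on mm9 and give no coordinates. The AP-1 letters stood in 5.42% of all windows. They stood in 14.98% of the 494 windows of genes at least 2-fold higher and in 6.92% of the 477 windows of genes at least 2-fold lower. Among genes with smaller changes the share was 5.61% for rises and 4.43% for falls, and it was 4.92% for genes that were not called. At 4-fold or more the shares were 16.92% of 195 windows for rises and 8.75% of 80 windows for falls. No CRE match is itself an AP-1 match, although matches can lie side by side. The CRE letters stood in 3.12% of all windows, 1.62% of those of genes at least 2-fold higher and 2.52% of those of genes at least 2-fold lower. These shares are descriptions without a test, and a match is not a binding site.

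The next sequences show what such windows hold in genes that moved in either direction; capitals mark TGANTCA, and each is written 5′ to 3′ in the direction of its gene. Arhgap40, a GTPase-activating protein, and Odaph, an odontogenesis-associated phosphoprotein, both rose. The first 2 lines are the 250 bases before the start, which overlap no annotated exon on that strand: Arhgap40 at chr2:158512546-158512795 (plus strand) with a pair of matches, and Odaph at chr5:91987223-91987472 (plus strand) with a single match.
Arhgap40: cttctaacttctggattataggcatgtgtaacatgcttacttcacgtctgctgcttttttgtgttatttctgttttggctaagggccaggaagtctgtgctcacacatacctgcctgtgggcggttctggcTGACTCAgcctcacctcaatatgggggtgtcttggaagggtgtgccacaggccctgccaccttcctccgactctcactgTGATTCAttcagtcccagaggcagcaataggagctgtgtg
Odaph: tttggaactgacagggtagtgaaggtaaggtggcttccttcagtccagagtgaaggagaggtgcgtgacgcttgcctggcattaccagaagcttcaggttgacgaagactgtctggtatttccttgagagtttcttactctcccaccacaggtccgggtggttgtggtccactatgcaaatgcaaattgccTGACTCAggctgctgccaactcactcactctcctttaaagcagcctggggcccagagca
A match outside annotated exons, with 20 bases on either side, is given for 3 further genes that rose, Emp1 at chr6:135362766-135362812 (plus strand), Lhx6 at chr2:36105563-36105609 (minus strand) and Arhgef10l at chr4:140666040-140666086 (minus strand). Emp1 and Arhgef10l each have another match, not printed, that overlaps an annotated exon. Such a match is also given for 2 genes that fell, Kcnk2 at chr1:189344292-189344338 (minus strand) and Bdnf at chr2:109676860-109676906 (plus strand).
Emp1: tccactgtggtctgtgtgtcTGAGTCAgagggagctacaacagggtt
Lhx6: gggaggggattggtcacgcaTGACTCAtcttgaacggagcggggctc
Arhgef10l: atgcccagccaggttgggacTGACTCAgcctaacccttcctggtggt
Kcnk2: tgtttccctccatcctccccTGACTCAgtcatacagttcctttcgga
Bdnf: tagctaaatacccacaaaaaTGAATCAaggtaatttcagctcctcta
The same letters therefore stood before genes that rose and genes that fell. Among the 16 genes with the largest rises, 15 had a window and only Odaph had the letters, in 1 of 21 windows (4.76%). Among the 16 with the largest falls, 11 had a window, and the letters stood in 0 of 11 windows. No match says only that the letters are not in that window.

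**Figure D2:**
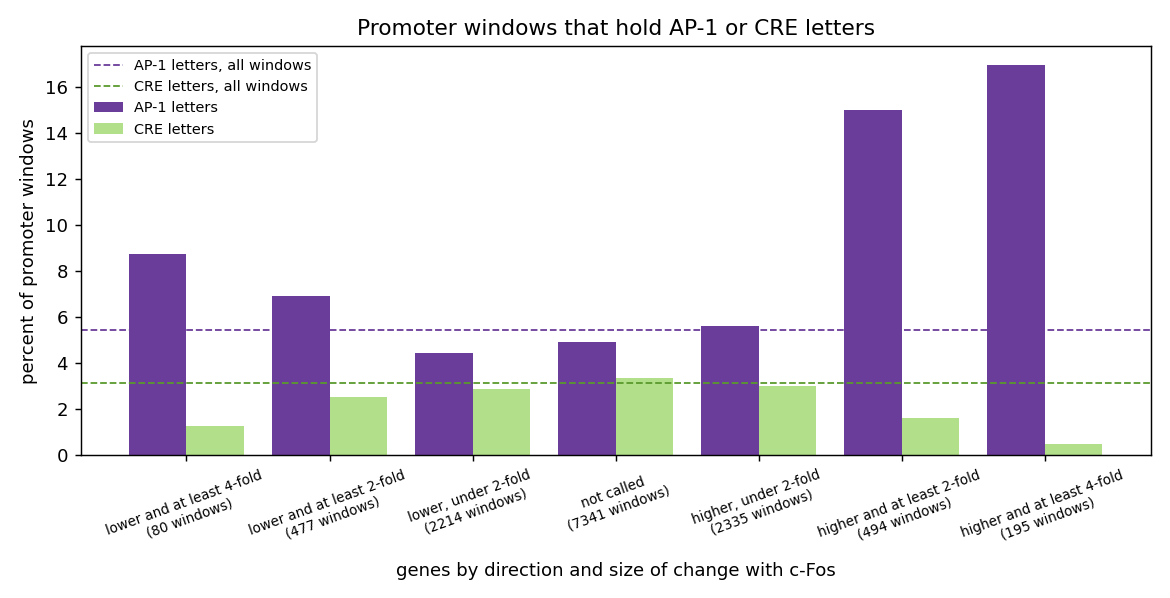
Bars give the percent of promoter windows with the AP-1 letters TGANTCA (purple) or the CRE letters TGACGTCA (green) for genes grouped by direction and size of change, with dashed lines for all windows at 5.42% and 3.12%. The groups of at least 4-fold are part of those of at least 2-fold, and the AP-1 share is 14.98% for genes at least 2-fold higher.

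The 16 largest rises by log2 fold change, taken from called genes that reached 5 CPM with c-Fos, came from a low or absent level. Nlrp2, a member of the NOD-like receptor family, had 0.173 and 0.194 CPM in the empty-vector libraries and 15.5 and 13.5 CPM with c-Fos. Its log2 fold change was 6.26 ± 0.22 (adjusted p = 1.4e-10), from deposited counts of 3.5 and 4.5 in the empty-vector libraries. Siglecg, a sialic-acid-binding lectin known from B cells, had 0.173 and 0.194 CPM against 11.7 and 8.18 CPM (5.72 ± 0.31, adjusted p = 8.4e-09). Both were thus near the level of a few reads without c-Fos. Phex, the endopeptidase-like protein lost in X-linked hypophosphataemia, went from 0.563 and 0.388 to 23.5 and 25.3 CPM (5.65 ± 0.27, adjusted p = 5.4e-08). Kcnn4, a calcium-activated potassium channel, went from 0.952 and 1.46 to 55.2 and 56.7 CPM (5.55 ± 0.16, adjusted p = 2.8e-11). Inpp4b, a phosphoinositide phosphatase, reached the highest CPM of the 16, 168 and 164 CPM, from 4.85 and 4.76 CPM (5.11 ± 0.25, adjusted p = 7.1e-06). The rule that picked these 5 genes required that the groups not overlap.

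Several other large rises encode membrane and signalling proteins. Nfatc2, a transcription factor activated by calcineurin, had 0.173 and 0.3399 CPM in the empty-vector libraries and 9.69 and 7.95 CPM with c-Fos (5.10 ± 0.31). Ano1, a calcium-activated chloride channel, had 0.649 and 0.777 and 23.7 and 24.8 CPM (5.08 ± 0.16), and Fxyd5, a regulator of the sodium pump, had 0.2597 and 0.243 and 8.49 and 8.52 CPM (5.05 ± 0.24). The replicate values of Ano1 and of Fxyd5 lay close together in each group. Emp3, an epithelial membrane protein, stood at 3.03 and 3.88 CPM and rose to 79.9 and 84.8 CPM (4.58 ± 0.11), and the water channel Aqp1 rose from 0.2597 and 0.486 to 7.46 and 6.53 CPM (4.23 ± 0.24). Ptges, which makes prostaglandin E, rose from 1.17 and 0.777 to 16.7 and 16.1 CPM (4.05 ± 0.19). Il18r1, the ligand-binding chain of the IL18 receptor, rose from 0.563 and 0.6797 to 9.69 and 10.8 CPM (4.04 ± 0.21), and Blnk, an adaptor of B cell receptor signalling, from 0.346 and 0.6797 to 7.95 and 7.67 CPM (3.94 ± 0.23). Blnk and Il18r1 are best known from immune cells, and the part of any such cells in these rises was not tested. Celf4, an RNA-binding protein, rose by 5.01 ± 0.20, Odaph by 4.21 ± 0.19 and Flnc, a filamin that crosslinks actin, by 3.78 ± 0.23. The adjusted p of these 11 genes lay between 3.2e-12 for Emp3 and 3.5e-08 for Nfatc2.

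By the same rule, with 5 CPM reached in the empty-vector libraries, the largest fall was that of Glul, glutamine synthetase. Glul went from 77.9 and 76.6 CPM in the empty-vector libraries to 2.29 and 1.705 CPM with c-Fos (-5.27 ± 0.13, adjusted p = 4.4e-12). Over all tested genes, without that rule, the lowest log2 fold change was -6.12. Mir8114, which the annotation places within Glul, fell as well, and the reads of the pair cannot be told apart. Gulp1, an adaptor for the uptake of dying cells, went from 14.7 and 11.4 to 1.09 and 0.795 CPM (-3.78 ± 0.22, adjusted p = 1.7e-08). Srcin1, an inhibitor of Src signalling, went from 8.31 and 8.64 to 0.653 and 1.02 CPM (-3.33 ± 0.22), and Cytip, a cytohesin-binding protein, from 31.9 and 28.8 to 3.05 and 3.01 CPM (-3.32 ± 0.14). That the groups stood apart in these genes was required by the rule that picked them. Megf6, a protein with many EGF-like repeats, went from 52.5 and 55.01 to 8.27 and 8.41 CPM (-2.69 ± 0.09, adjusted p = 1.1e-10), and Npr3, the clearance receptor for natriuretic peptides, from 152 and 146 to 27.3 and 24.1 CPM (-2.54 ± 0.09, adjusted p = 2.2e-10). Npr3 and Megf6 showed small differences between their libraries. Pi15, a secreted protein of the peptidase inhibitor family, went from 69.5 and 65.7 to 12.1 and 11.8 CPM (-2.50 ± 0.32, adjusted p = 0.002). Its standard error was larger than that of Npr3, although its compared libraries lay close together in each group. The inhibitor libraries, which enter the error, lay farther apart for Pi15, at 17.4 and 25.7 CPM with afatinib and 24.6 and 13.3 CPM with UO126.

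Among the other falls of the 16, Ttc28 fell from 17.96 and 17.5 to 2.29 and 2.39 CPM (-2.92 ± 0.14), Gsta3, a glutathione transferase with close copies that can share reads, from 14.03 and 14.5 to 1.69 and 2.39 CPM (-2.81 ± 0.18), and Art4, an ADP-ribosyltransferase of the cell surface, from 11.1 and 11.6 to 1.52 and 2.16 CPM (-2.62 ± 0.19). The orphan receptor Gpr141 (-2.61 ± 0.26) and the transcriptional coregulator Mn1 (-2.54 ± 0.18) were lower as well. Sema3d, a secreted semaphorin, had 5.63 and 4.47 CPM without and 0.9796 and 0.966 CPM with c-Fos (-2.37 ± 0.35, adjusted p = 0.00025). Pgm5, a phosphoglucomutase-like protein of cell junctions, went from 21.7 and 19.2 to 4.25 and 3.75 CPM (-2.36 ± 0.13). Its neighbour Tmem252 overlaps it in the annotation and was also lower (-3.01). The receptor phosphatase Ptprd is described with its family below.

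**Figure D3:**
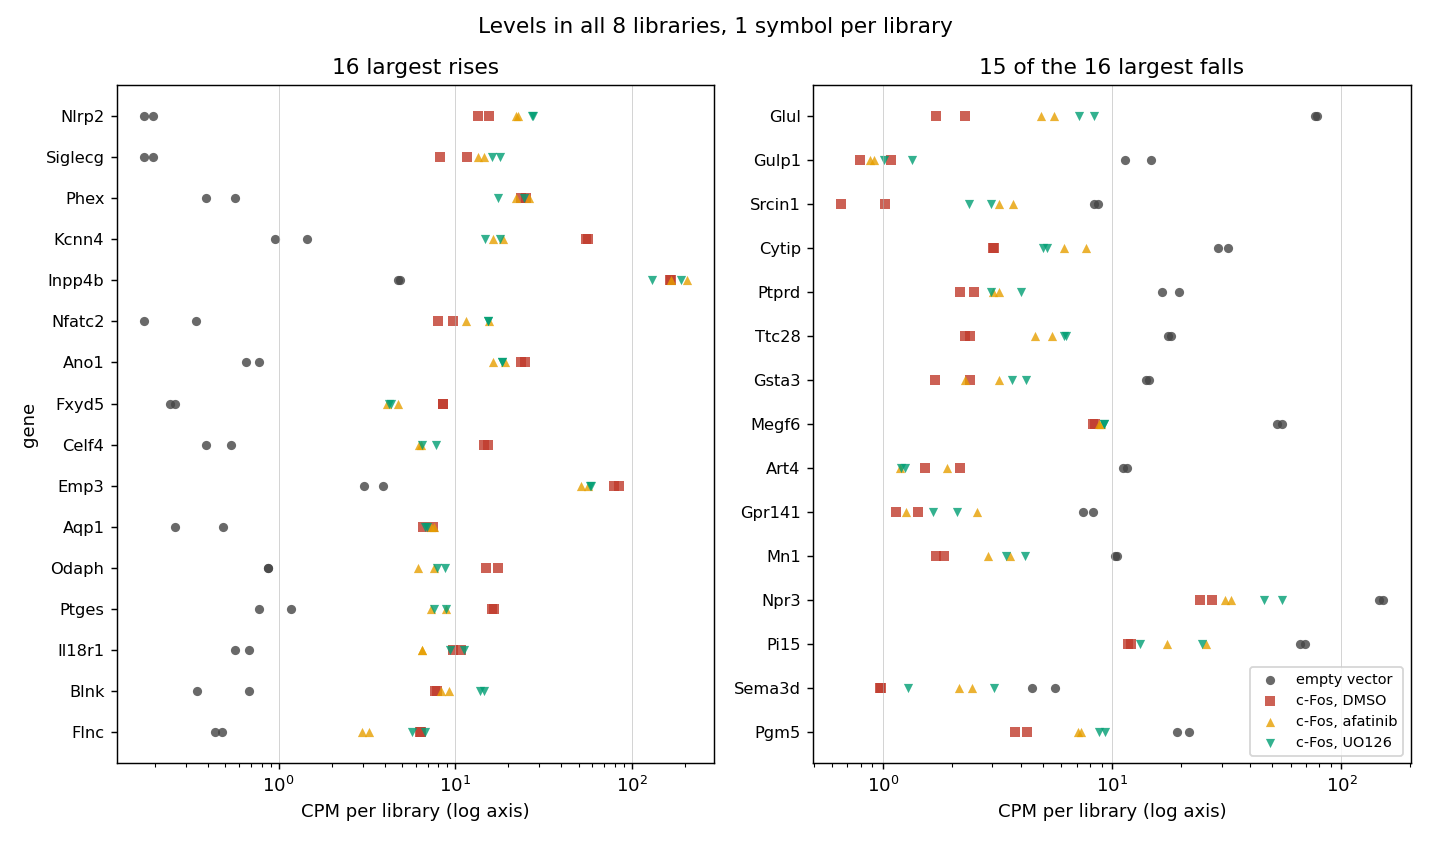
Points give the level in each of the 8 libraries (CPM, log x axis) for the 16 largest rises (left) and 15 of the 16 largest falls (right), with 2 libraries per group shown by symbol and colour. The c-Fos with DMSO libraries (red squares) lie apart from the empty-vector libraries (grey circles), as the rule that picked the genes required. Kcnn4, for example, stands at 55.2 and 56.7 against 0.952 and 1.46 CPM.

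Ranked by the difference in CPM, which favours abundant and long transcripts, the rises were a different set from those by fold. Ahnak, a giant scaffold protein, went from 3092 and 2594 to 4663 and 3820.1 CPM (0.58 ± 0.13, adjusted p = 0.0075), with about as large a gap between the 2 DMSO libraries as between the groups' nearest values. Lmna, the nuclear lamin A/C gene, went from 688 and 711 to 1571 and 1599 CPM (1.18 ± 0.06, adjusted p = 3.6e-09). S100a6, a calcium-binding S100 protein, went from 323 and 335 to 1157 and 1268 CPM (1.88 ± 0.07), Emp1, an epithelial membrane protein, from 345 and 349.9 to 1173 and 1241 CPM (1.80 ± 0.07) and Cav1, the coat protein of caveolae, from 373 and 385 to 1092 and 1149 CPM (1.56 ± 0.11). These 4 genes rose by more than 2-fold. Actb (0.36 ± 0.06), Hsp90ab1 (0.28 ± 0.06), Fasn (0.62 ± 0.07), Pabpc1 (0.49 ± 0.07) and Ncl (0.49 ± 0.06) completed the 10, with smaller folds. Actb, Hsp90ab1, Pabpc1 and Ncl, which encode a cytoskeletal protein, a chaperone, a poly(A)-binding protein and a nucleolar protein, have close copies or pseudogenes that can share reads.

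The falls by CPM were led by Dst and Col17a1. Dst, a cytoskeletal linker, went from 4695 and 4232 to 2292 and 2009.8 CPM (-1.05 ± 0.07, adjusted p = 8.2e-08), and Bend6, which overlaps it in the annotation, was higher (1.51). Col17a1, a transmembrane collagen of the hemidesmosome, went from 4719.6 and 4629.9 to 3047 and 2807 CPM (-0.68 ± 0.06, adjusted p = 2.3e-06). Synpo, an actin-binding protein, had the largest fold of the 10, from 955 and 912 to 200.5 and 173 CPM (-2.32 ± 0.08, adjusted p = 2.0e-10). The rule that picked these genes required both DMSO libraries to lie below both empty-vector libraries. Wnt4, a secreted Wnt ligand, went from 661 and 700.3 to 264 and 242 CPM (-1.43 ± 0.07). Sh3pxd2a, a scaffold of podosomes, changed by -0.83 ± 0.07, the amyloid precursor App by -0.45 ± 0.06, the amino acid transporter Slc38a2 by -0.58 ± 0.09, the secreted protease Htra1 by -0.49 ± 0.06, the matrix protein Thbs1 by -0.39 ± 0.07 and D17H6S56E-5 by -1.02 ± 0.06. Of the 10 falls by CPM, Dst and Synpo were also lower by at least 2-fold, as were Wnt4 and D17H6S56E-5.

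The 25 gene lists hold 1100 tested genes, and over all tested genes 21.5% were higher, 20.7% lower, and the median log2 fold change was -0.0052. Leaving out any of the 4 compared libraries lowered the calls in both directions over all tested genes. Leaving out either UO126 library raised them. List counts given below without a library stand beside this general change, and whether they differ from it was not tested. Among 15 tested potassium channels of 52 listed, 4 were higher and 4 lower (median -0.17). Besides Kcnn4, the rises were Kcnj15 (0.65), Kcnk5 (0.86) and Kcnk7 (1.02), named after their values were seen. The falls were in Kcnk2, a leak channel, from 44.9 and 43.1 to 13.9 and 15.1 CPM (-1.60 ± 0.09), in Kcnh1 from 7.099 and 5.83 to 1.47 and 1.99 CPM (-1.91 ± 0.20) and in the inward rectifier Kcnj2 (-1.14 ± 0.23). Kcnk1 had the highest CPM, 128 and 124 against 110.1 and 115 CPM (-0.16 ± 0.06, adjusted p = 0.045). Its call was lost when any of 7 of the 8 libraries was left out, with adjusted p between 0.0575 and 0.318, and without empty vector replicate 2 or c-Fos with DMSO replicate 2 only 2 potassium channels were higher.

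Chloride channels, anoctamins and regulators of the sodium pump had 15 higher, 2 lower and 13 not called of 30 tested (median 0.20). Beside Ano1 and Fxyd5, Lrrc8e, a subunit of the volume-regulated anion channel, rose from 10.6 and 9.13 to 29.6 and 30.001 CPM (1.59 ± 0.09). Clca2 had 1.299 and 1.02 CPM without and 0.653 and 0.341 CPM with c-Fos (-1.21 ± 0.41); its call was lost without empty vector replicate 1 or c-Fos with DMSO replicate 2 (adjusted p = 0.183 and 0.23).

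Genes of calcium entry, calcium stores and the calcineurin pathway included 17 higher and 10 lower of 55 (median 0.083), and the falls numbered 4 or 5 without empty vector replicate 1, c-Fos with DMSO replicate 1 or replicate 2. Cacna1g, a voltage-gated calcium channel subunit, fell from 68.2 and 62.05 to 29.7 and 25 CPM (-1.25 ± 0.12), and Atp2a2, the calcium pump of the endoplasmic reticulum, rose from 704 and 676 to 841 and 838 CPM (0.28 ± 0.06). Trpv3, a channel of keratinocytes, rose at a low level, from 0.952 and 0.6797 to 2.18 and 1.705 CPM (1.23 ± 0.28, adjusted p = 0.0028). Camk2b, at 0.909 and 1.36 against 0.435 and 0.114 CPM, was called lower (-1.99 ± 0.48) but not without c-Fos with DMSO replicate 2 (adjusted p = 0.0634).

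Phosphoinositide kinases and phosphatases were called at the background share, 11 higher and 11 lower of 52 (median 0.054). Inpp4b was the only member higher by at least 2-fold, and Pik3r3, a regulatory subunit of the lipid kinase, the only member lower by at least 2-fold, from 53.3 and 51.2 to 26.1 and 21.9 CPM (-1.12 ± 0.09). Its relative Pik3r2 changed by -0.62 ± 0.07 and the phosphatase-like Mtmr10 by 0.96 ± 0.08, while Pitpnb, with the highest CPM, did not pass (0.13 ± 0.06, adjusted p = 0.11). The number of rises was 19 without c-Fos with UO126 replicate 2, and that of falls 6 without empty vector replicate 1 or c-Fos with DMSO replicate 2. Of 22 purinergic receptors and enzymes that degrade extracellular nucleotides, 7 were higher and 5 lower (median 0.085), and 3 were lower without empty vector replicate 1. Entpd3 rose from 4.16 and 4.18 to 13.1 and 14.3 CPM (1.71 ± 0.13), P2ry2 by 0.96 ± 0.13 and P2rx7 by 0.72 ± 0.17. Nt5e, which makes adenosine outside the cell, fell from 165 and 159 to 103 and 94.3 CPM (-0.71 ± 0.07), and the nucleoside transporter Slc29a1 did not pass (0.19 ± 0.08, adjusted p = 0.065).

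Of 26 tested phospholipases, lipoxygenases and receptors of lipid mediators, 13 were higher and 7 lower (median 0.22); 8 were higher without empty vector replicate 2. Spns2, the exporter of sphingosine phosphate, rose from 9.87 and 10.9 to 67.8 and 64.1 CPM (2.67 ± 0.09, adjusted p = 1.5e-10). Pla2g7, which breaks down platelet-activating factor, rose from 0.693 and 0.777 to 5.44 and 7.16 CPM (3.09 ± 0.23), and Lpar5, a receptor for lysophosphatidic acid, from 0.433 and 0.194 to 1.42 and 1.42 CPM (2.13 ± 0.44). Ptger3, a receptor for prostaglandin E, went the other way to its synthase Ptges, from 1.56 and 1.75 to 0.109 and 0.341 CPM (-2.86 ± 0.43), with deposited counts of 36 and 36 against 2 and 6. Plbd2, with the highest CPM of the list, was called lower (-0.27 ± 0.07, adjusted p = 0.0078), and this call was lost without either empty-vector library or c-Fos with DMSO replicate 2, with adjusted p between 0.0503 and 0.0699.

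The list of conjugating enzymes (glutathione, sulfate and glucuronic acid transferases and their relatives) also held Ces1g, an enzyme of another kind. Of its 26 tested members, 7 were higher and 5 lower (median 0.0052), and fewer were lower when any of the 4 compared libraries was left out. Sult2b1, which sulfates cholesterol in the epidermis, rose from 0.606 and 0.291 to 3.54 and 5.28 CPM (3.25 ± 0.32). Mgst3, a microsomal glutathione transferase, rose from 12.4 and 13.6 to 51.5 and 55.3 CPM (2.04 ± 0.09) and Gsto1 from 268 and 275 to 489.6 and 507 CPM (0.88 ± 0.06), whereas Gsta3 fell as given above. Members of the glutathione transferase family thus changed in opposite directions. Ces1g, a carboxylesterase with close copies, rose by 2.33 ± 0.14.

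Retinoid and steroid metabolism had 11 higher and 8 lower of 36 (median 0.0082), with 4 or 5 lower when any of the 4 compared libraries was left out. Dhrs9, a retinol dehydrogenase, rose from 0.433 and 0.486 to 2.99 and 2.22 CPM (2.50 ± 0.32), and Dhrs3, a retinal reductase, fell from 11.8 and 13.4 to 5.17 and 4.89 CPM (-1.32 ± 0.13). Akr1b8, an aldo-keto reductase with close copies, rose by 1.88 ± 0.13 and Hsd17b12 by 0.61 ± 0.06. Aldh3b1, at 0.433 and 0.388 against 1.09 and 1.08 CPM, was called higher (1.38 ± 0.39) but not without empty vector replicate 2 or c-Fos with DMSO replicate 2 (adjusted p = 0.0605 and 0.0528). Zinc, copper and iron handling had 9 higher and 10 lower of 40 (median -0.11). Slc40a1, the iron exporter ferroportin, fell from 28.1 and 24.96 to 8.33 and 8.296 CPM (-1.68 ± 0.13), and Cp, a ferroxidase that works with it, fell (-1.40 ± 0.24). The zinc transporter Slc30a4 rose from 139 and 129 to 260.1 and 264 CPM (0.97 ± 0.12), and the zinc importer Slc39a10 fell from 204 and 180.4 to 104 and 108 CPM (-0.86 ± 0.12). Ftl1, the ferritin light chain, has pseudogenes that can share reads and was lower (-0.28 ± 0.07).

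Innate sensors and inflammasome genes were called near the background share, 7 higher and 7 lower of 31 (median -0.015). Beside Nlrp2, Card14, a scaffold of keratinocyte signalling, rose from 0.519 and 0.6797 to 2.56 and 1.99 CPM (1.92 ± 0.31) and Card10 from 104 and 103 to 157 and 145 CPM (0.55 ± 0.07). Ddx58, the RNA sensor RIG-I, fell from 73.7 and 62.1 to 25.5 and 23.3 CPM (-1.48 ± 0.10, adjusted p = 1.5e-07). The related sensor Ifih1 was at 1.73 and 1.26 against 0.599 and 0.341 CPM (-1.66 ± 0.43), and its call was lost without empty vector replicate 1 or c-Fos with DMSO replicate 2 (adjusted p = 0.069 and 0.0757).

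Sialic acid binding, sialylation and galectins had 13 higher and 6 lower of 28 (median 0.12). Lgals3, a galectin that binds galactosides, rose from 101 and 108 to 475 and 495 CPM (2.21 ± 0.07, adjusted p = 4.3e-11), while Lgals3bp, which encodes its binding protein, fell from 3.38 and 2.72 to 1.09 and 0.568 CPM (-1.87 ± 0.32). Lgals7, with the highest CPM of the list, stood at 391 and 417 against 407 and 426 CPM and did not pass (0.05 ± 0.06, adjusted p = 0.6). St6galnac4, a sialyltransferase, rose by 1.92 ± 0.43 from a level below 1 CPM.

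Receptors and ligands of the interleukin, interferon and TNF superfamilies had 22 higher and 16 lower of 62 (median 0.13), with 10 lower without c-Fos with DMSO replicate 2. Both chains of the IL18 receptor rose, Il18rap from 1.56 and 1.65 to 9.14 and 11.5 CPM (2.68 ± 0.17) beside Il18r1. Edar, the ectodysplasin receptor of hair follicle and skin appendage development, fell from 2.42 and 2.33 to 0.272 and 0.341 CPM (-2.94 ± 0.36), and its ligand Eda and adaptor Edaradd, singled out after their values were seen, were lower at -2.27 and -0.85. Tnfrsf12a, the TWEAK receptor, had the highest CPM of the list and rose from 204 and 217 to 488 and 482 CPM (1.20 ± 0.06).

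Among growth factors of the FGF, PDGF, HGF, IGF and neurotrophin families with their receptors, 11 were higher and 16 lower of 43 (median -0.24). The neurotrophin receptor Ngfr had deposited counts of 3.5 and 0.5 in the empty-vector libraries and 32.5 and 28 with c-Fos, and passed the test. Bdnf, a neurotrophin, fell from 9.09 and 7.28 to 2.39 and 1.88 CPM (-1.94 ± 0.20). Gfra2, a receptor for neurturin, fell from 11.4 and 10.7 to 1.96 and 2.44 CPM (-2.33 ± 0.15). The receptor kinase Met had the highest CPM, 717 and 683 against 876 and 828 CPM (0.28 ± 0.07), and its call was lost without empty vector replicate 2 (adjusted p = 0.053).

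The TGF-beta, BMP and activin list had 9 higher and 13 lower of 46 (median -0.0052). Nbl1, a secreted BMP antagonist, fell from 63.2 and 59.6 to 14.2 and 11.4 CPM (-2.27 ± 0.13), and Tgfb3 from 12.7 and 14.5 to 6.42 and 4.66 CPM (-1.29 ± 0.17). Ltbp1, which anchors latent TGF-beta in the matrix, rose from 213 and 211 to 543 and 506 CPM (1.31 ± 0.06), and its relative Ltbp2 fell (-1.47 ± 0.29). Fst, the activin antagonist follistatin, had the highest CPM, 677 and 683 against 508 and 539 CPM (-0.38 ± 0.06). Proteoglycans and the enzymes of heparan sulfate and hyaluronan had 10 higher and 18 lower of 56 (median -0.18). Has2, a hyaluronan synthase, rose from 6.84 and 5.54 to 31.2 and 25 CPM (2.18 ± 0.15), Sulf1, a heparan sulfate sulfatase, from 159 and 148 to 471 and 449 CPM (1.58 ± 0.06) and the syndecan Sdc3 from 2.55 and 2.82 to 9.91 and 10.9 CPM (1.95 ± 0.15). The largest called changes of this list were thus rises, although falls were more numerous. Agrn, agrin, had the highest CPM and changed by -0.38 ± 0.07. Ogn, at 1.26 and 1.55 against 0.4898 and 0.568 CPM, was called lower (-1.39 ± 0.36) but not without empty vector replicate 2 or c-Fos with DMSO replicate 1 (adjusted p = 0.0539 and 0.0654).

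ADAM and ADAMTS proteases had 3 higher and 8 lower of 23 (median -0.15). Adam12, a membrane protease, rose from 23.5 and 20.7 to 76.7 and 71.1 CPM (1.74 ± 0.08), and Adamtsl3, an ADAMTS-like protein, by 1.68 ± 0.10. Secreted ADAMTS proteases were among the falls. Adamts1 fell from 458 and 419 to 219.9 and 211 CPM (-1.02 ± 0.06) and Adamts4 from 2.94 and 3.88 to 1.42 and 0.909 CPM (-1.54 ± 0.26). Adamts9 had deposited counts of 34 and 31 in the empty-vector libraries and 1 and 0.5 with c-Fos, too few for a fold change.

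Of 16 receptor protein tyrosine phosphatases and their partners tested, 4 were higher and 5 lower (median -0.017). Ptprd fell from 19.5 and 16.5 to 2.18 and 2.5000 CPM (-2.94 ± 0.17, adjusted p = 1.5e-08), and Ptprz1 from 73.4 and 62.3 to 18.2 and 15.5 CPM (-2.01 ± 0.11). Ptpru changed by -0.47 ± 0.07 and Ptprs by -0.35 ± 0.07. Ptprf, with the highest CPM, was lower (-0.21 ± 0.07, adjusted p = 0.025), and its call was lost without either empty-vector library or c-Fos with DMSO replicate 2, with adjusted p between 0.0516 and 0.279. The rises were small, and without empty vector replicate 2 edgeR called 0 members higher by adjusted p and 2 by unadjusted p, and DESeq2 called 0; without c-Fos with DMSO replicate 1 the number was 1.

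Adhesion molecules of the immunoglobulin family, cadherins of neural type and protocadherins had 8 higher, 26 lower and 20 not called of 54 (median -0.27), and 16 were lower without c-Fos with DMSO replicate 2. Mcam, a melanoma cell adhesion molecule, fell from 105 and 111 to 23.4 and 22.2 CPM (-2.24 ± 0.09, adjusted p = 3.2e-10), Cdh11, a mesenchymal cadherin, from 45.4 and 40.4 to 8.27 and 10.1 CPM (-2.23 ± 0.16) and Fat4, an atypical cadherin, from 4.11 and 3.59 to 0.762 and 0.795 CPM (-2.30 ± 0.23). L1cam, a neural adhesion molecule, rose from 1.13 and 1.12 to 5.77 and 6.705 CPM (2.47 ± 0.22). Fat1, by far the highest CPM of the list, stood at 2266 and 1890.2 against 2158 and 1788 CPM with overlapping groups and did not pass (-0.07 ± 0.11, adjusted p = 0.64).

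Small GTPases of the cytoskeleton with their exchange factors and GTPase-activating proteins had 33 higher and 23 lower of 91 (median 0.057), and the falls numbered 13 without empty vector replicate 1 and 14 without c-Fos with DMSO replicate 2. Ngef, an exchange factor, rose from 4.03 and 4.66 to 34.6 and 32.4 CPM (2.95 ± 0.11, adjusted p = 2.2e-10), and Srgap3, a GTPase-activating protein, from 0.216 and 0.194 to 3.76 and 4.205 CPM (4.23 ± 0.30). Arhgap40 and Arhgef10l, whose upstream sequences are printed above, rose from 0.649 and 0.583 to 3.05 and 2.27 CPM (2.10 ± 0.28) and from 4.502 and 4.61 to 16.8 and 14.4 CPM (1.78 ± 0.12). Arhgdia, the inhibitor that holds such GTPases in the cytosol, had the highest CPM and rose by 0.50 ± 0.06.

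Homeobox factors were mostly lower or not called: 3 of 70 were higher and 28 lower (median -0.30). Hoxd11 fell from 28.3 and 27.97 to 6.86 and 7.78 CPM (-1.94 ± 0.11) and its neighbour Hoxd10 from 37.9 and 40.98 to 11.9 and 11.7 CPM (-1.74 ± 0.09). The annotation has these 2 genes overlap, so their reads may be shared. Counted after the values were seen, 14 of 26 tested Hox genes fell, among them all 6 tested genes of the HoxD cluster (median -1.11). The POU factor Pou3f1 fell from 39.3 and 42.3 to 15.3 and 14.3 CPM (-1.46 ± 0.09). Lhx6, a LIM homeobox factor, was the exception with a large rise, from 0.866 and 0.6797 to 6.31 and 4.32 CPM (2.77 ± 0.26), and Cux1, with the highest CPM, did not pass (-0.06 ± 0.08, adjusted p = 0.55). Without c-Fos with DMSO replicate 1 the falls numbered 18, and 5 were higher without either UO126 library.

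SOX, forkhead, RUNX, GATA and TBX factors had 9 higher and 16 lower of 40 (median -0.031), with 5 higher without empty vector replicate 2. Sox6 fell from 68.05 and 59.4 to 19.8 and 15.7 CPM (-1.85 ± 0.11) and Foxp2 from 2.86 and 4.08 to 0.435 and 0.682 CPM (-2.62 ± 0.33). Foxn1, a factor of hair and keratinocyte differentiation, went from 2.25 and 2.14 to 0.871 and 0.511 CPM (-1.65 ± 0.31). Foxk2, with the highest CPM, rose by 0.24 ± 0.06, a call lost without empty vector replicate 2 (adjusted p = 0.0698). Nuclear receptors and clock genes had 9 higher and 14 lower of 40 (median -0.085), with 5 higher without empty vector replicate 1 or c-Fos with DMSO replicate 2. Bhlhe40, a clock-linked repressor, rose from 61.3 and 57.97 to 135 and 135 CPM (1.18 ± 0.08), and Hlf, a clock output factor, fell from 109 and 105 to 54.6 and 51.4 CPM (-1.02 ± 0.07). Rora fell (-1.76 ± 0.42). Thrb, a thyroid hormone receptor, was at 1.86 and 0.922 against 0.544 and 0.227 CPM (-1.84 ± 0.49), and its call was lost without empty vector replicate 1 or c-Fos with DMSO replicate 2 (adjusted p = 0.126 and 0.088). Esr1, an oestrogen receptor, had the highest CPM of the list and did not pass (0.07 ± 0.06, adjusted p = 0.37).

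Genes of the primary cilium, the antenna-like organelle of the cell surface, were lower in the largest share of any of the 25 lists described: 40 of 79 fell and 2 rose (median -0.27). Leaving out empty vector replicate 1 lowered the number of called falls, as it did over all tested genes. The falls were shallow. Tulp3, a ciliary trafficking factor with the highest CPM, fell from 277 and 276 to 155 and 156 CPM (-0.83 ± 0.06, adjusted p = 2.7e-07), and Ift122, a subunit of the intraflagellar transport complex, from 45.6 and 45.6 to 26.1 and 24.9 CPM (-0.84 ± 0.08). Dzip1 fell from 5.37 and 5.44 to 2.56 and 1.82 CPM (-1.30 ± 0.21) and the joubertin gene Ahi1 from 30.4 and 28.5 to 13.9 and 17.4 CPM (-0.91 ± 0.11). Counted after the values were seen, 11 of the 14 tested genes with an Ift symbol fell (median -0.37). The 2 rises were Bbs12 (0.74) and Traf3ip1 (0.42); the number of rises was 1 without empty vector replicate 2, and 4 and 5 without UO126 replicates 1 and 2.

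Histone, DNA and chromatin modifiers had 13 higher and 32 lower of 99 (median -0.10), all within 1 log2 unit of 0. Smarca2, an ATPase of the chromatin remodelling complex, fell from 149 and 145 to 85.9 and 81.02 CPM (-0.81 ± 0.06), the histone demethylase Kdm7a from 29.9 and 27.2 to 16.001 and 17.9 CPM (-0.75 ± 0.12), and Arid5a rose from 12.3 and 9.905 to 21.9 and 22.6 CPM (1.00 ± 0.11). Chd4, with the highest CPM, did not pass (-0.07 ± 0.05, adjusted p = 0.31). Hdac9, at 1.86 and 1.55 against 0.9796 and 0.852 CPM, was called lower (-0.90 ± 0.28) but not without empty vector replicate 1, c-Fos with DMSO replicate 1 or replicate 2, with adjusted p between 0.065 and 0.148. The rises numbered 6 to 8 when any of the 4 compared libraries was left out and 20 without UO126 replicate 2, and the falls 17 without empty vector replicate 1 or c-Fos with DMSO replicate 2. Imprinted genes had 4 higher and 5 lower of 23 (median -0.096). Mest fell from 43.9 and 42.6 to 21.9 and 23.1 CPM (-0.94 ± 0.08), Dcn, decorin, from 2.51 and 2.62 to 0.9796 and 0.455 CPM (-1.82 ± 0.34), and Cd81, a tetraspanin, rose from 115 and 117 to 220.4 and 216 CPM (0.91 ± 0.06). Phlda2 was called higher (1.42 ± 0.36) but not without empty vector replicate 1 (adjusted p = 0.084). Gnas, with the highest CPM, did not pass (0.02 ± 0.06, adjusted p = 0.85).

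**Figure D4:**
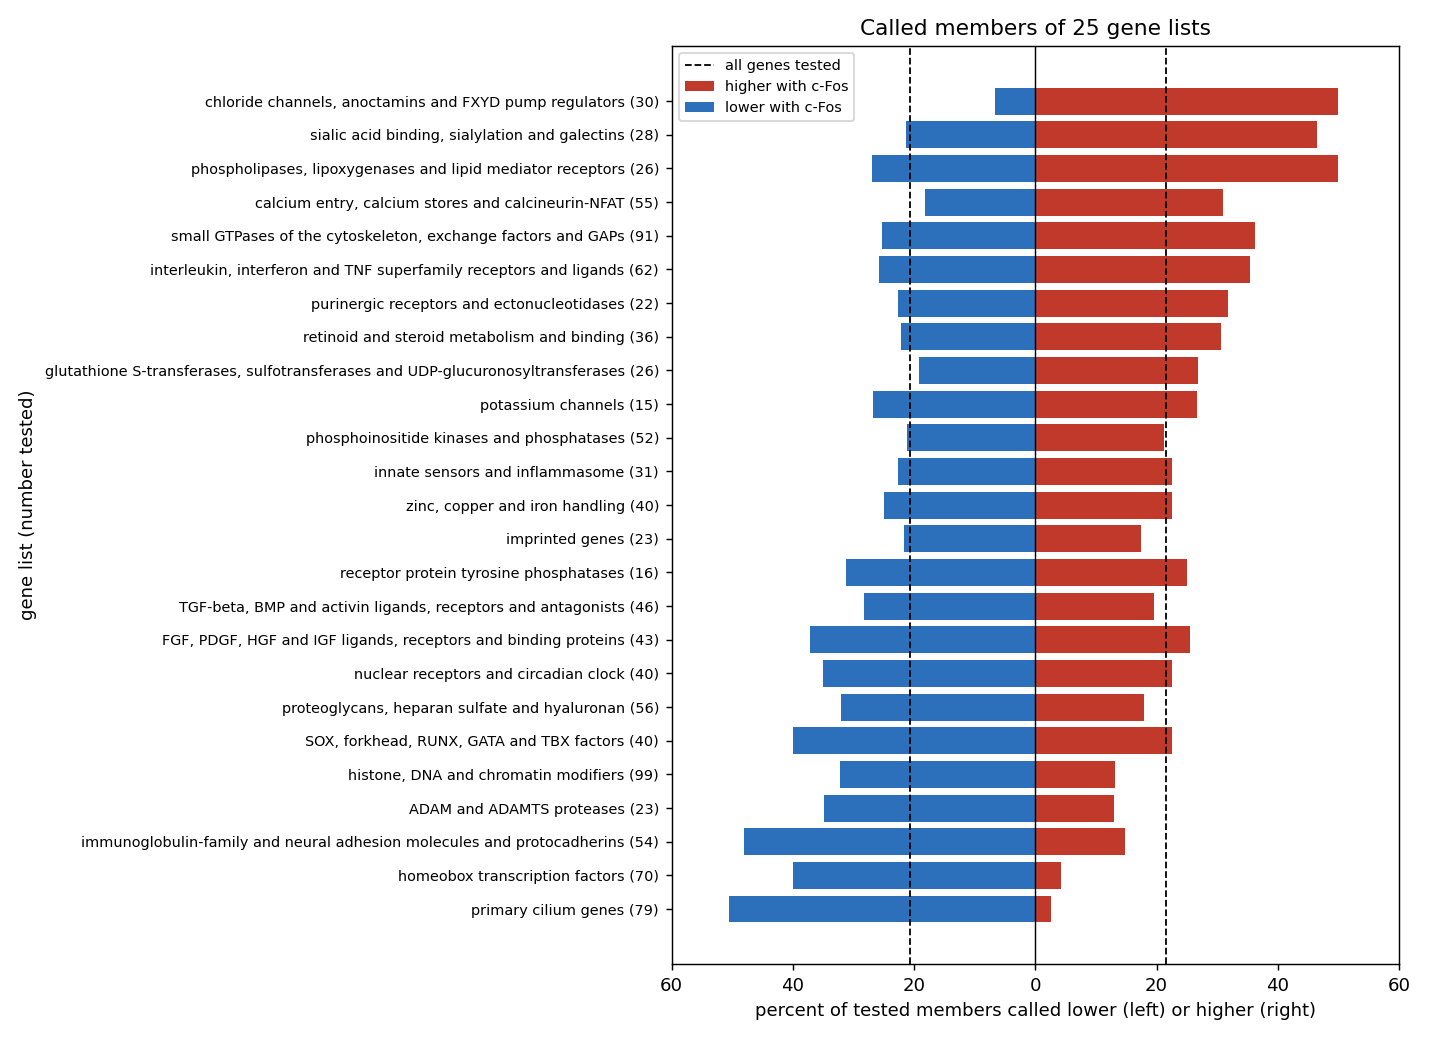
Bars give the percent of tested members of each of 25 gene lists called higher (red, right) or lower (blue, left) with c-Fos, with the number tested in parentheses and dashed lines at 21.5% and 20.7% for all genes. Chloride channels, anoctamins and pump regulators stand at the top with 15 of 30 higher, and primary cilium genes at the bottom with 40 of 79 lower.

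The 4 libraries of c-Fos cells with an inhibitor share the empty-vector controls and are given as values only. In them the 16 largest rises and 16 largest falls by fold kept their direction against the empty vector, at differing sizes. Kcnn4 had 18.7 and 16.4 CPM with afatinib and 14.7 and 17.9 CPM with UO126, between the empty-vector and DMSO values. Emp1 had 490.3 and 538 and 651 and 569.8 CPM, also between them, and Spns2 had 23.9 and 21.5 and 26.7 and 28.4 CPM. Nlrp2 stood above both DMSO libraries, at 22.8 and 22.05 CPM with afatinib and 27.5 and 27.3 CPM with UO126. Inpp4b, at 166 and 206 and 191 and 131 CPM, lay around its DMSO values. Glul remained low, at 4.87 and 5.59 and 7.14 and 8.303 CPM, and Megf6 stood at 8.96 and 8.8004 and 9.198 and 9.22 CPM, near its DMSO level. Sox6 had 57.5 and 64.3 and 54.2 and 57.7 CPM and Wnt4 529 and 495 and 512 and 558 CPM, above their DMSO values in all 4 libraries. Sox6 was thus near its empty-vector values of 68.05 and 59.4 CPM, and Wnt4 stayed below its own, 661 and 700.3 CPM. Ces1g had 3.75 and 3.94 and 4.91 and 4.70 CPM, nearer its empty-vector values (2.60 and 3.30) than its DMSO values (14.5 and 15.1). Mest, at 40.9 and 40.4 and 44.9 and 40.6 CPM, was near its empty-vector level. Thbs1 was below every other library with afatinib, at 989 and 1071 CPM, and at 2712 and 2674 CPM with UO126.

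Genes next to a called gene were called in the same direction more often than the background. Of 5518 neighbours of called rises, 31.1% were higher, and of 5291 neighbours of called falls, 29.1% were lower, beside 21.5% and 20.7% of all genes. Without overlapping neighbours the shares were 30.3% and 26.9%. For genes changed by at least 2-fold they were 37.7% and 34.2%, or 35.9% and 31.8% without overlap. Of the 32 neighbours of the 16 largest rises, 10 were higher, 4 lower and 18 not called. Of the 32 neighbours of the 16 largest falls, 5 were higher, 11 lower and 16 not called. The named examples were picked as runs in the same direction. Il18r1 and Il18rap are next to each other, flanked by Il1rl1 (1.54) and the sodium-proton exchanger Slc9a2 (2.02), all higher. S100a6 lies between S100a4 (3.74) and S100a7a (3.24), both higher, and Cav1 next to Cav2 (1.15) and Met, both higher. On the falling side Hoxd9 (-0.70) follows Hoxd10 and Hoxd11. Gene order comes from the RefSeq table of GRCm38.p6 and holds tested genes only, so untested genes can lie between neighbours. No test was made of these shares.

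Calls depended on level and on transcript length. In 5 bands of equal gene number by CPM, rises made up 13.8% of the lowest and 31.2% of the highest band and falls 18.8% and 17.4%, while 259 of the 494 rises and 311 of the 512 falls of at least 2-fold lay in the lowest band. By length, rises went from 25.4% of the shortest transcripts to 16.5% of the longest, and falls from 10.8% to 31.7%. The median log2 fold change went from 0.08 to -0.10 over the same bands. In the band of longest transcripts the median against the empty-vector mean was 0.041 and -0.041 in the 2 empty-vector libraries and -0.062 and -0.14 in those with DMSO. It was -0.012 and 0.051 for afatinib and -0.018 and -0.050 for UO126. The 2 empty-vector libraries thus also differed by length, and c-Fos with DMSO replicate 2 lay farthest out. The median length was 3323 bases for the cilium list, 4574 for the adhesion list, 2497 for the homeobox list and 4653 for the chromatin list, beside 2859 for all tested genes; the part of length in the counts of these lists was not tested.

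**Figure D5:**
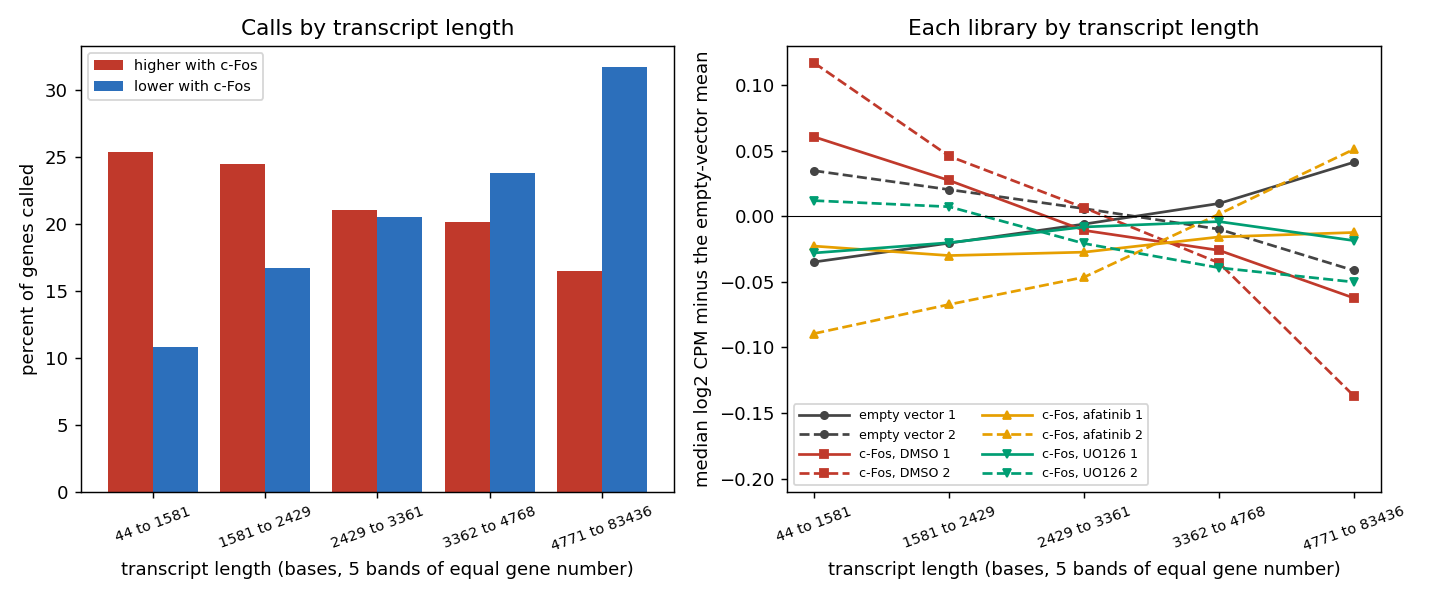
The left panel gives the percent of genes called higher (red) or lower (blue) in 5 bands of transcript length in bases, and the right panel the median log2 CPM of each library minus the empty-vector mean in the same bands. Falls go from 10.8% to 31.7% from the shortest to the longest band, and the 2 c-Fos with DMSO libraries end at -0.062 and -0.14.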

How the data were processed

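Messenger RNA libraries were made without strand marking from total RNA of ASZ001 cells, per the labels' protocols, so overlapping genes on opposite strands cannot be told apart. The authors aligned reads with TopHat and counted them with HOMER on mm9, per the submitters' processing notes, which also list DESeq2 with no stated role. The deposited values are expected counts, not normalized, 1 entry per symbol; 26 of 24909 entries had date-like symbols and were left out. The counts were rounded and tested in R 4.3.3 with edgeR 4.0.16: filterByExpr (minimum count 10, total 15), TMM scaling, and the two-sided robust quasi-likelihood test on all 8 libraries, 1 coefficient per group, with 4 residual degrees of freedom and a common biological coefficient of variation of 0.0596. P-values were adjusted by Benjamini-Hochberg over 12879 genes and called under 0.05; standard errors come from the F statistic. CPM are scaled to library size, not to gene length. Between the 2 libraries of a group, chi-square per degree of freedom was at least 5.05, so no pair was a repeated library.

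Members and gene lists were chosen with earlier results of these data known; 1886 of 1887 list symbols were matched, 9 by synonym. The rule named Fos; outside the marker lists left out, the 16 largest called rises and falls by fold (at least 5 CPM in the higher group, no overlap of libraries, no unnamed transcripts) and the 10 largest by CPM difference; and per list the 4 called members with the largest fold at 1 CPM or more and the member with the highest CPM. Some genes that the rule named are not reported here. Counts by Hox or Ift symbol, length bands and a few relatives marked as such were added after the values were seen. Promoter windows and gene order come from RefSeq GRCm38.p6. The script was tested on simulated data. Alternatives were DESeq2 1.42.0 size factors and its Wald test, other count filters, the 4 compared libraries alone, a replicate block, no robust estimation, stricter thresholds, omission of Rn45s and of each library.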

Additional observations from a re-analysis of the deposited data

How the results depend on the processing

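No called gene changed sign under any alternative in which it was tested. With a 2-fold minimum 494 genes were higher and 512 lower. Leaving out each library in turn gave 1939 to 3466 higher and 1661 to 3085 lower genes, and Fos kept its call with log2 fold changes between 4.52 and 4.81. The fewest falls came without empty vector replicate 1 and the fewest rises without c-Fos with DMSO replicate 2; the cause was not tested. The DESeq2 Wald test called 2391 and 1969 genes, and 4322 of the 5433 called genes were called in the same direction. With DESeq2 size factors 53.2% of the calls were rises, and the median of all genes was 0.0075 in place of -0.0052. A replicate block gave 2554 and 2478; same-numbered libraries had correlations of their deviations between -0.21 and 0.12, so the numbers were not taken as pairing the samples, and of the genes named the block removed the call of Kcnk1 alone. A filter of at least 5 CPM in 2 libraries left 1 potassium channel higher, with fewer genes tested. It left 5 ADAM proteases, 3 genes of the sialic acid list, 3 of the conjugating enzyme list and 1 chloride channel gene lower. The Wald test left 3 purinergic genes, 3 genes of the conjugating enzyme list and 1 chloride channel gene lower. It removed the calls of Aldh3b1, Clca2, Hdac9, Kcnk1, Ogn and Phlda2. The fit to the 4 compared libraries had 5 homeobox and 4 cilium genes higher. Standard errors were smaller at higher levels: the median standard error was 0.32 in the lowest and 0.067 in the highest level band; sequencing depth itself was not varied.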
